A study of Saccharomyces cerevisiae with 2 samples.

Results

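The ferric reductase genes FRE1 to FRE6 of budding yeast were examined for DNA double strand breaks in cells recovering from a replication block with or without an iron chelator. The 6 genes were chosen by name, and all of them held probes: 49 of the 41480 probes lay inside the genes and 247 lay inside them or within 5 kb. FRE1 lies inside chromosome XII, 501.0 kb from the outermost probe of its arm. The other 5 lie within 50 kb of the outermost probe of a chromosome: FRE2 on XI at 9.0 kb, FRE5 and FRE3 on XV at 17.9 and 23.9 kb, FRE6 on XII at 31.5 kb and FRE4 on XIV at 39.4 kb. FRE3 and FRE5 are neighbours, and the regions around them share 23 probes.

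Ferric reductases are membrane proteins that pass electrons from NADPH through flavin and haem to metal ions on the other side of the membrane, so that ferric iron becomes the ferrous iron that uptake systems accept. Fre1 and Fre2 work at the cell surface on iron salts and copper, Fre3 and Fre4 release iron from siderophores, and Fre6 acts at the vacuolar membrane. The genes are best known for being transcribed when iron is scarce, under the iron-responsive factor Aft1. Transcription was not measured here.

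All cells carried the mec1 genotype in strain WFA73, a checkpoint mutant that forms breaks at replication forks once hydroxyurea is taken away. Cells arrested in G1 with alpha factor were released into 200 mM hydroxyurea for 1 h, which starves forks of deoxynucleotides, and recovered for 1 h in fresh medium, in 1 culture with 0.8 micromolar BPS, an iron chelator, and in 1 culture without it. In the Break-chip assay, DNA ends in agarose-embedded chromosomes are labelled with a dye and hybridised to a tiling array, here Cy3 for the recovery DNA against Cy5 for G1 DNA of the same strain. The question was whether the chelator altered where breaks form.

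Each recovery was measured on 1 array, so differences were not checked against replicates and no test was run. The deposited values are ratios between the channels, with medians of 1.23 with BPS and 1.21 without BPS. On the log2 scale, the median of each array was subtracted. A level is therefore the signal of a place against its own genome, and the overall number of breaks is not comparable between the cultures. The ratio was taken as recovery over G1, the likely direction because the columns carry the names of the recovery samples, but the sources do not name its numerator. With the opposite direction all signs would be the opposite. Each array has its own G1 channel, so a difference can also come from the G1 side. DNA copied near origins also raises such a ratio, and its share in these values was not tested. Errors are standard errors (SE) over probes, which cover scatter within an array only. Values spread more widely with BPS (SD 0.86) than without (SD 0.72). The noise SD was 0.42 with and 0.35 without BPS, taken from the differences between neighbouring probes and scaled down to 1 probe.

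Of the 6 genes, 5 had a higher mean signal with BPS than without it, and FRE1 had a lower one. Among all 4340 genes with at least 3 probes, 47.2% were higher with BPS, and among the 490 of them within 50 kb of an outermost probe 52.7% were. The signs at FRE3 and FRE5 are not settled: FRE3 turned negative after quantile normalization (−0.046) and with medians over probes (−0.0025), and both genes turned negative when gene positions were moved 0.5 kb or 1 kb toward lower coordinates. A gene was counted as past the threshold when its mean differed by more than 0.5 log2 units, or 1.41-fold. That held for 2 of the 6 genes, beside 16.4% of all genes and 16.1% of those within 50 kb of an outermost probe. FRE2 passed it in the positive direction, beside 9.61% of all genes and 10.8% of those near ends. FRE1 passed it in the negative direction, beside 6.77% and 5.31%. The median difference was 0.19 for the 6 genes and −0.03 for all genes.

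**Figure D1:**
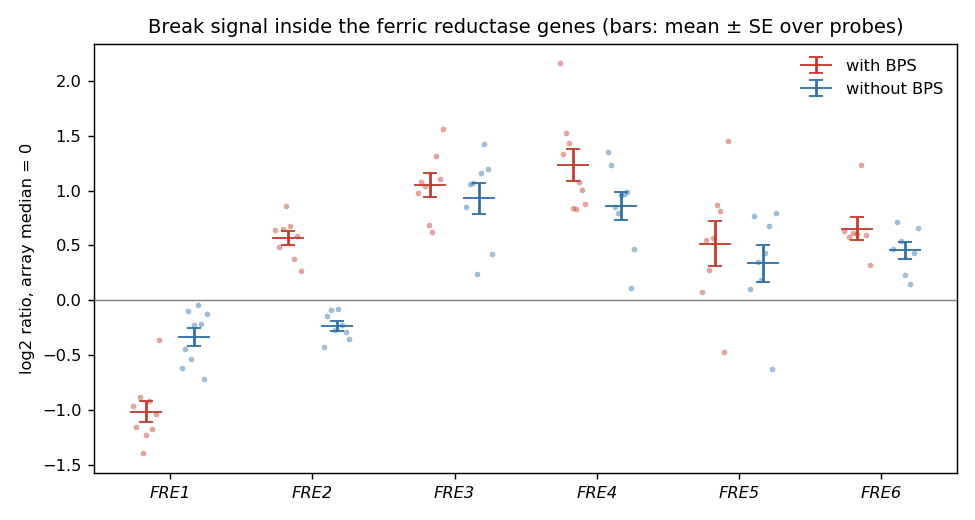
Log2 ratio of every probe inside the 6 genes, less the array median, with BPS (red, left of each pair) and without BPS (blue, right). Bars are the mean ± SE over 7 to 9 probes. The probes of FRE2 do not overlap between the arrays and those of the other 5 genes do, a trait that was not counted over all genes.

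FRE1 encodes the main surface reductase for iron and copper. Its 9 probes, from 568.8 to 570.6 kb on chromosome XII, had deposited ratios of 0.465 to 0.951 with BPS and 0.738 to 1.17 without BPS. Every probe was lower with BPS than without it, while the ranges of the arrays overlapped. The mean level was −1.02 ± 0.10 with BPS and −0.34 ± 0.08 without BPS, a difference of −0.68 ± 0.10, or 1.60-fold lower. Among all genes with at least 3 probes, the difference lay at the 2.18th percentile.

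The lower signal at FRE1 was part of a wide stretch. Within 5 kb either side of the gene, 48 of 49 probes were lower with BPS, with a mean difference of −0.56 ± 0.05. Neighbouring probes are not independent, and the share of windows so nearly of 1 sign was not counted over the genome. The 5 kb upstream had −1.30 ± 0.06 with BPS and −0.79 ± 0.06 without BPS, and the 5 kb downstream had −0.69 ± 0.08 and −0.12 ± 0.05. The difference was therefore similar before the gene (−0.51), on the 5′ side of its midpoint (−0.68), on the 3′ side (−0.68) and behind it (−0.57). The difference between the running means (1 kb to each side of a probe) of the arrays stayed negative from 553.3 to 604.7 kb, 51.4 kb that include a probe-free transposon. The unbroken run past 0.5 that holds the gene was short, from 568.5 to 570.6 kb (2.1 kb, 10 probes). Its largest difference, −0.73, lay inside FRE1 at 569.5 kb. How long such runs are elsewhere in the genome was not measured.

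Genes on both sides of FRE1 shared its sign. TUB4, which encodes gamma-tubulin, had −1.57 with BPS and −0.88 without BPS, and the deepest point of the surroundings with BPS lay there, at 565.7 kb (−1.55). MSC3 differed by −0.78 ± 0.12 over 10 probes, ATG38, a gene of an autophagy lipid kinase complex, by −0.57 ± 0.09, the cyclophilin gene CPR6 by −0.51 ± 0.13 and the spore wall gene CRR1 by −0.43 ± 0.04. COA4, for assembly of cytochrome oxidase, had −0.51 on 1 probe, and CDC123, for assembly of a translation factor, differed least, by −0.14 ± 0.05 over 2 probes. FRE1 thus lay on the flank of a valley that was present on both arrays and lower with BPS.

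FRE2, the second surface reductase, differed the other way. Its 8 probes, from 9.1 to 11.0 kb on chromosome XI, had levels of 0.27 to 0.86 with BPS and −0.43 to −0.08 without BPS. The lowest probe with BPS exceeded the highest without BPS. How many of all genes have this trait was not counted. The mean level was 0.57 ± 0.07 with BPS and −0.23 ± 0.04 without BPS, so the gene lay above the genome median on the first array and below it on the second. The difference of 0.80 ± 0.07, or 1.74-fold, was at the 96.3rd percentile of all genes. Probe by probe it ran from 0.60 to 1.13.

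FRE2 also belonged to a longer block. Running means were higher with BPS by more than 0.5 from 6.5 to 15.6 kb, over 35 probes and 9.1 kb, and the difference between them was positive from 2.9 to 28.3 kb. The largest such difference, 0.97, lay outside the gene at 13.7 kb, with 1.00 with BPS and 0.03 without BPS. MCH2, a relative of monocarboxylate permeases, differed by 0.62 ± 0.10, COS9, of a subtelomeric membrane protein family, by 0.75 ± 0.23, and YKL222C, nearer the end, by 0.37 ± 0.13. Upstream of FRE2, toward the chromosome interior, the 5 kb had a difference of 0.77 ± 0.11, and downstream, toward the end, 0.67 ± 0.08. Of the 43 probes within 5 kb, 41 were higher with BPS, a count of probes that are not independent and that has no genome-wide share beside it. COS9 has close relatives at other chromosome ends, so its probes can share signal with them. The 6 reductase genes are also relatives of each other, and whether their probes share signal was not checked.

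**Figure D2:**
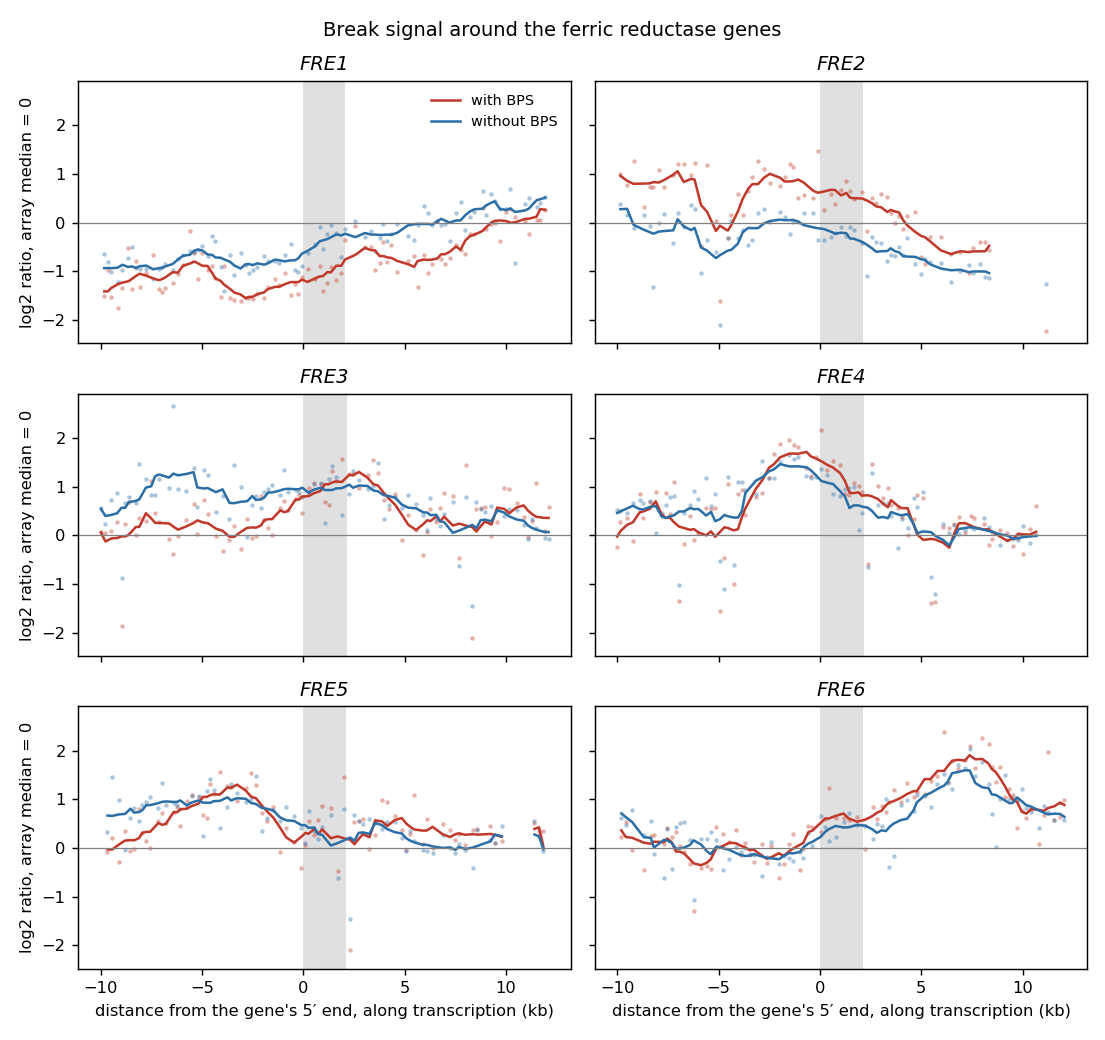
Signal within 10 kb of each gene, drawn in the direction of transcription with the gene shaded; dots are probes, lines are running means (1 kb to each side), broken where no probe lies for 1.5 kb, with BPS in red and without BPS in blue. The red line runs below the blue at FRE1 and above it at FRE2 across the gene and both flanks, while the lines cross near FRE3, FRE4, FRE5 and FRE6. The outermost probe near FRE2, at 0.1 kb, has no line and was lower with BPS (−2.24) than without BPS (−1.25).

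FRE3 and FRE4 encode reductases for siderophore-bound iron, and they had the highest signal of the 6 genes on both arrays. FRE3, with 8 probes from 1055.8 to 1057.4 kb on chromosome XV, had ratios of 1.89 to 3.61 with BPS and 1.43 to 3.25 without BPS. The ranges overlapped almost entirely, and 4 probes were higher and 4 lower with BPS. Its mean level was 1.05 ± 0.11 with BPS and 0.93 ± 0.14 without BPS, a difference of 0.12 ± 0.17 that is smaller than its SE. FRE4, with 9 probes from 740.0 to 742.0 kb on chromosome XIV, had ratios of 2.18 to 5.48 with BPS and 1.31 to 3.10 without BPS. Of these probes 7 were higher and 2 lower with BPS, and the arrays overlapped. The mean level of FRE4 was 1.23 ± 0.15 with BPS and 0.86 ± 0.13 without BPS, a difference of 0.37 ± 0.13 that did not reach 0.5.

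FRE4 sat on the side of a hill seen on both arrays. Its summit, as a running mean, lay upstream of the gene at 739.3 kb with BPS (1.71) and at 738.0 kb without BPS (1.46). MNT4, a mannosyltransferase gene under the summit of the array without BPS, had 1.51 with BPS and 1.41 without BPS. Within FRE4 the 5′ side of the midpoint, nearer the summit, had 1.62 ± 0.19 with BPS and 1.06 ± 0.14 without BPS, and the 3′ side had 0.93 ± 0.05 and 0.70 ± 0.18. The difference was 0.56 ± 0.16 on the 5′ side and 0.23 ± 0.19 on the 3′ side. Over 5 kb either side it was 0.10 ± 0.06, a value that turned to −0.020 after quantile normalization and to −0.0007 over 10 kb either side. PUL3 and PUL4, which serve the use of the iron chelate pulcherrimin, lie downstream and differed by −0.11 ± 0.20 and −0.05 ± 0.10. YNR061C, the next gene downstream, differed by 0.21 ± 0.06, and the biotin synthesis gene BIO3, upstream, by −0.27 ± 0.19.

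Around FRE3 the gene and its upstream flank differed in what the arrays showed. The 5 kb upstream had 0.30 ± 0.08 with BPS and 0.85 ± 0.08 without BPS, a difference of −0.55 ± 0.10. The ammonium transporter gene AMF1 there differed by −0.66 ± 0.04 and RDR1, a repressor of drug resistance genes, by −0.74 ± 0.32. FRE3 itself, at 0.12 ± 0.17, and the 5 kb downstream, at −0.04 ± 0.09, had differences within their SE. With BPS the highest place within 10 kb of FRE3 was behind its 3′ end, at 1058.3 kb (1.30). Without BPS it was at 1050.1 kb, near AMF1 (1.30). The latter mean includes a single probe at 2.66 without BPS and −0.38 with BPS, and its weight in the place of the summit was not tested. The upstream flank gave the whole region around FRE3 a difference of −0.24 ± 0.08, opposite in sign to the gene.

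Between FRE3 and FRE5 lie FIT2 and FIT3, which encode cell wall proteins that retain siderophore iron. Each holds 1 probe. FIT2 had 0.55 with BPS and 0.62 without BPS, and FIT3 had 0.42 and 0.83. The means of all 4 iron genes of this cluster were thus above the genome median on both arrays, and their differences had no common direction.

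FRE5 encodes a reductase-like protein assigned to mitochondria in large-scale localisation work. Its 8 probes, from 1061.7 to 1063.6 kb, spanned ratios of 0.882 to 3.35 with BPS and 0.786 to 2.10 without BPS, the widest range of the 6 genes on the log2 scale on both arrays. Its mean level was 0.52 ± 0.20 with BPS and 0.34 ± 0.16 without BPS. The difference was 0.18 ± 0.10, with 5 probes higher and 3 lower. Over 5 kb either side the difference was 0.07 ± 0.07, which turned negative within 2 kb (−0.092), within 10 kb (−0.040) and after quantile normalization (−0.0005). Downstream, PHR1, the DNA photolyase gene, differed by 0.41 ± 0.16 and YOR385W by 0.25 ± 0.25.

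FRE6 encodes the vacuolar reductase. Its 7 probes, from 37.6 to 39.4 kb on chromosome XII, had ratios of 1.53 to 2.89 with BPS and 1.34 to 1.99 without BPS, which overlapped. The mean level was 0.65 ± 0.11 with BPS and 0.46 ± 0.08 without BPS, and 5 probes were higher and 2 lower. The difference of 0.20 ± 0.17 kept its sign under every alternative tried, between 0.11 and 0.23, but is close to its SE. The probe at 39.039 kb differed by 1.09 and the others by −0.34 to 0.38. The mean without that probe was not computed. Inside FRE6, the 5′ side of the midpoint had 0.69 with BPS and 0.37 without BPS, and the 3′ side had 0.61 and 0.58. Of the flanks, the one toward the chromosome end had the higher signal. The 5 kb upstream had 0.00 ± 0.07 with BPS and −0.14 ± 0.05 without BPS, and the 5 kb downstream had 1.15 ± 0.12 and 0.82 ± 0.13. The summit lay at 32.1 kb with BPS (1.90) and 32.3 kb without BPS (1.60), beside YLL054C. That gene had 1.45 with BPS and 1.12 without BPS. On the other side the cofilin gene COF1 differed by 0.24 ± 0.07, the dynactin gene LDB18 by 0.42 ± 0.14 over 2 probes and the vacuolar transporter gene YBT1 by −0.08 ± 0.10. Between the summit and FRE6, the aquaporin gene AQY2 (0.53 ± 0.81, 2 probes) and YLL053C (1.36, 1 probe) rested on too few probes to place.

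The order of the levels with BPS was FRE4, FRE3, FRE6, FRE2, FRE5 and FRE1. Neighbours in that order differed by more than 2 combined SEs only between FRE3 and FRE6 and between FRE5 and FRE1. These SEs treat neighbouring probes as independent, which they are not, and leave out scatter between arrays. The cutoff therefore describes the spacing of these values and is not a test of the order. Without BPS the order was FRE3, FRE4, FRE6, FRE5, FRE2 and FRE1, with gaps of that size between FRE4 and FRE6 and between FRE5 and FRE2. In these values FRE2 stood beside FRE5 and FRE6 with BPS and beside FRE1 without BPS, a change of place not checked against replicates. Above the genome median lay 5 of the 6 genes with BPS and 4 of the 6 without BPS, beside 51.3% and 50.7% of all genes. Among the genes within 50 kb of an outermost probe these shares were 63.1% and 61%.

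**Figure D3:**
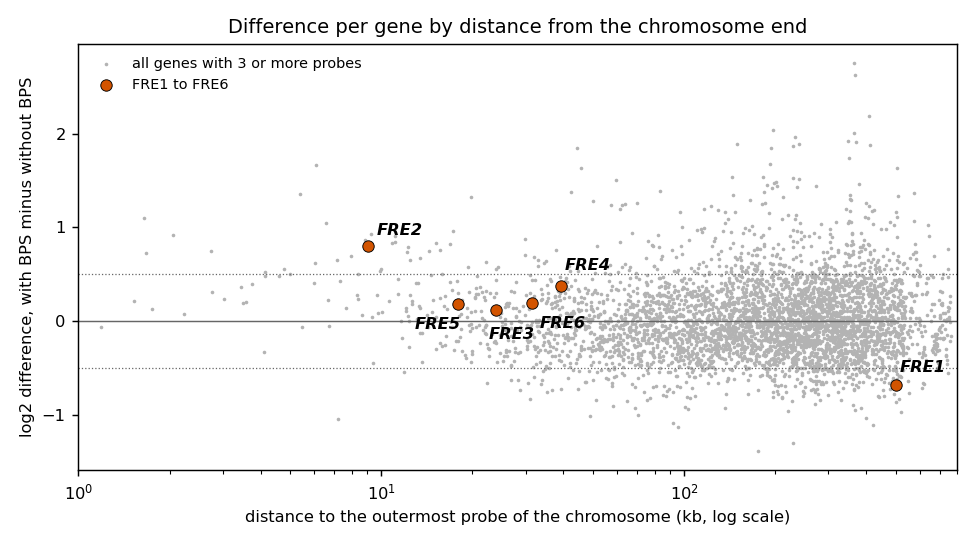
Difference per gene (with BPS minus without BPS, log2) against the distance to the outermost probe of the chromosome on a log axis, for FRE1 to FRE6 (orange) and all 4340 genes with at least 3 probes (grey); dotted lines mark 0.5 either way. FRE2, at 9.0 kb, is above the upper line and FRE1, at 501.0 kb, below the lower one, while the other 4 lie between the lines.

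Among single probes inside the genes, 5 differed by over 1 log2 unit, beside 6.39% of all probes. Of these, 4 were higher with BPS and 1 was lower, beside 4.22% and 2.17% of all probes. FRE2 held 2 of the 4 high ones, at 9.1 and 9.9 kb. One probe of FRE3 at its 3′ end (1057.438 kb) had 1.56 with BPS and 0.42 without BPS, a difference of 1.14, while the probes before and after it differed by −0.09 and 0.42. In the surroundings some probes stood far below their neighbours on both arrays. Of the 247 probes, 8 (3.24%) lay more than 1 log2 unit below the median of the 4 nearest probes on both arrays, beside 1.33% of all probes. The region of FRE4 held 5 of them, and FRE5 held 1 inside the gene, at 1063.248 kb (−0.47 with BPS and −0.62 without BPS), with another just behind it at 1063.875 kb (−2.10 and −1.45). The low probe inside FRE5 lay far below the mean levels of that gene, and its weight in their SEs was not tested. Its difference of 0.15 was near the 0.18 of the gene.

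The closest relatives outside the 6 genes showed no common direction either. FRE7, a surface reductase gene induced by copper starvation, had 0.87 with BPS and 0.44 without BPS, a difference of 0.42 ± 0.10 over 7 probes. FRE8 had 1.09 and 1.01, and AIM14, also known as YNO1, had 0.59 and 0.95, a difference of −0.36.

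Other genes of iron uptake and its control were set beside the reductases as a list of 23, of which 18 held at least 3 probes. With BPS 10 of the 18 were higher and 8 lower, and the median difference was 0.07. Past 0.5 lay 3 in the positive direction and none in the negative direction, beside 9.61% and 6.77% of all genes. The highest was ARN2, a siderophore transporter gene, at 1.21 with BPS and −0.45 without BPS, a difference of 1.66 that places it at the 99.6th percentile. It lies 6.1 kb from the outermost probe on chromosome VIII, closer to an end than FRE2. FTH1, for a vacuolar iron transporter, differed by 0.70 and ENB1, a transporter gene for the siderophore enterobactin, by 0.58. The lowest were SMF3 (−0.39), which encodes a vacuolar metal exporter, CCC1 (−0.36), the vacuolar iron importer gene, and COT1 (−0.35), a vacuolar cobalt and zinc transporter gene. CCC1 lies behind FRE1 within the same stretch of lower signal. The regulator genes AFT1 and AFT2 differed by −0.18 and −0.24, and FET3 and FTR1, which encode the surface oxidase and permease fed by the reductases, by 0.06 and 0.32. Listed genes with fewer than 3 probes were TIS11 (0.96, 2 probes), ISU1 (0.31, 1 probe), FIT2 (−0.07, 1 probe) and FIT3 (−0.42, 1 probe).

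Of 5 copper genes only 2 held at least 3 probes. The others, CTR3 (1.64 ± 0.52, 2 probes), CTR2 (0.52, 1 probe) and CUP2 (−0.27 ± 0.51, 2 probes), rested on too few probes to place. MAC1, the copper-responsive regulator that also acts on FRE1, had −0.73 with BPS and −0.72 without BPS. CTR1, the surface copper transporter gene, had 1.27 and 0.80.

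**Figure D4:**
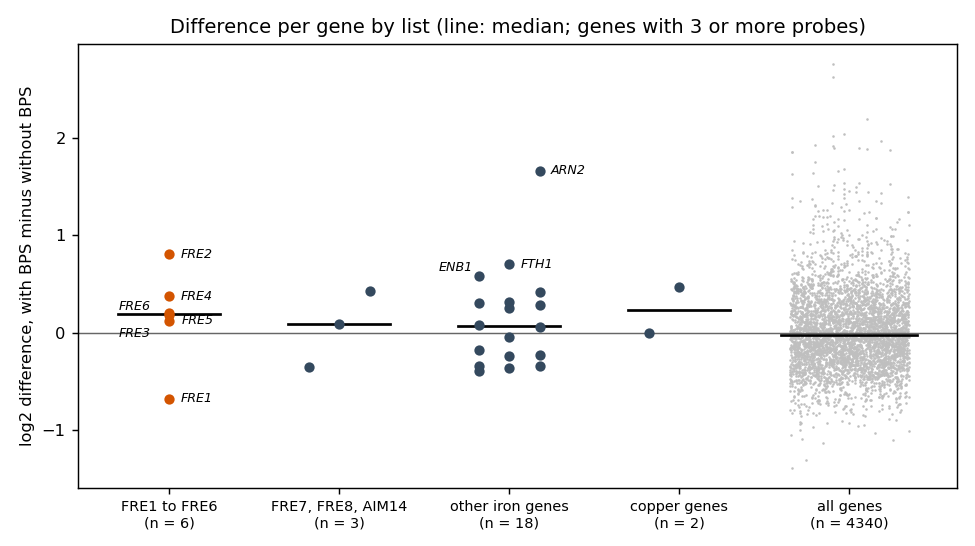
Difference per gene (with BPS minus without BPS, log2) for FRE1 to FRE6, 3 relatives, 18 other iron genes, 2 copper genes and all 4340 genes with at least 3 probes; lines are medians. The 6 reductase genes spread from −0.68 to 0.80 around a median of 0.19, and the median of the other iron genes is 0.07.

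The genes with the most similar pair of levels, by Euclidean distance over the 2 arrays and more than 20 kb away, were TRM44 for FRE1 (distance 0.04), CMR3 for FRE2 (0.04), JJJ2 for FRE3 (0.02), YPR148C for FRE4 (0.007), PEX6 for FRE5 (0.003) and YLR001C for FRE6 (0.003). How many other genes lie nearly as close was not counted, and with 2 arrays the likeness describes these values only.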

How the data were processed

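Break-chip DNA of 2 recovery cultures was measured on 2-colour arrays, 1 per group. Per the submitters' processing notes, Agilent Feature Extraction 9.5.1 read them. The deposited file holds a linear ratio per probe, normalized by the authors in a way not given in the sources used here. Its numerator and genome build were not given either. No scanner intensities were used, so signal over background was not assessed. The log2 of each ratio was taken and the array median subtracted with Python 3.11.15, numpy 2.4.6 and pandas 2.3.3. The code was tested on simulated data. No probe was filtered.

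Gene positions were those of RefSeq for assembly R64, whose coordinates are not reported. Its fit was checked on 9 transposon reading frames of chromosomes XII, XIV and XV: they held 1 probe in place, and 10 when moved 0.5 kb either way. Chromosome XI had no such frame. The interval stated with the choice of genes for FRE1, 564.5 to 566.5 kb, lies 4.1 kb short of FRE1 in R64 and holds TUB4, so the R64 position was used. The median spacing of probes was 257 bp. All planned results were values with no test.

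The genes, their lists and the rule for naming genes were chosen with earlier results of these data known. The rule named the 6 genes, genes with a probe within 5 kb, 3 relatives, the 3 highest and 3 lowest of the iron list, and the nearest gene by level. Other genes of the lists were named after their values were seen. Alternatives were no centring, division by the robust SD, quantile normalization, medians, moved positions and other window widths. No sequence is shown, as none was used here.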

Additional observations from a re-analysis of the deposited data

How the results depend on the processing

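Of 110 alternative values of the gene and window differences, 99 kept their sign and lay within 1 SD over probes of the value reported, and so did all 24 alternative levels. Values after division by the robust SD, which these counts include, are in units of that SD and not in log2 units. Over the alternatives named above the difference inside FRE1 ran from −0.78 to −0.53 and inside FRE2 from 0.75 to 0.92. The 0.92 is in SD units, and the largest log2 value inside FRE2 was 0.87, with positions moved 1 kb down. The FRE3 gene difference reversed to −0.046 after quantile normalization, to −0.0025 with medians over probes, to −0.076 with positions moved 0.5 kb down and to −0.11 moved 1 kb down. FRE5 reversed to −0.09 and −0.16 under the same moves, so 3 of the 6 genes were then higher with BPS. Window differences reversed at FRE4 to −0.020 and at FRE5 to −0.0005 after quantile normalization, at FRE5 to −0.092 within 2 kb, and within 10 kb at FRE4 to −0.0007 and at FRE5 to −0.040. These are values near 0, and the cause was not tested. All genes past the threshold numbered 711, against 100 at 1 log2 unit and 1142 when genes with a single probe counted, which tests more genes. FRE1 at the interval first stated, an alternative added after seeing the data, gave −0.52 inside and −0.43 over 5 kb either side. That interval holds TUB4 and not FRE1, yet its values are included in the 110 and in the 99. No paired analysis was possible because each group holds 1 array. The number of arrays limits the precision of every value.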
